A study of Mus musculus with 16 samples.

Results

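Basal cells of mouse tail epidermis that had carried SmoM2 for 10 weeks were compared with basal cells of untreated mice. SmoM2 is a form of Smoothened, the membrane protein that passes on the hedgehog signal, that is active without a ligand. The mice of the untreated, 4-week and 10-week groups were K14CREER/Rosa-SmoM2-YFP on a mixed strain background. A tamoxifen-dependent Cre recombinase is driven by the keratin 14 promoter. Once it has acted, SmoM2 fused to a yellow fluorescent protein is made from the Rosa locus. The untreated group had the same alleles and no tamoxifen, and its labels describe sorted interfollicular epidermis (IFE) cells. At 10 weeks after tamoxifen the cells were sorted as SmoM2-positive IFE cells. The comparison used 5 of the 16 arrays of the series, 2 at 10 weeks (replicates 1 and 2) and 3 untreated controls (replicates 1 to 3), and the 3 arrays at 4 weeks after tamoxifen served as the nearest earlier stage. The members are the genes on the array, each read from its brightest probe set with a single gene symbol. Of 18194 genes, 14286 had enough signal to be tested. The question put by the design is which genes change as SmoM2-expressing tumours develop. Time since tamoxifen, tamoxifen itself, SmoM2 and the selection of SmoM2-positive cells differ together between the groups and cannot be told apart. Age and sex are not stated in the labels, nor is whether an array holds RNA of 1 mouse or of a pool. The p-values therefore cover the spread between arrays alone, which may be technical. That spread was estimated from the fit to all 14 IFE arrays, not from the 5 compared. The other arrays in it include SmoM2 cells at 3 days and 1 week, and SmoM2 cells with loss of β-catenin at 4 weeks.

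Hedgehog proteins bind the receptor Ptch1, which otherwise holds Smoothened inactive. Active Smoothened turns the Gli factors into activators of transcription, and Gli1, Ptch1 and Hhip are themselves among the genes they switch on. In skin this pathway drives the growth of hair follicles, and its unchecked activity is the hallmark of basal cell carcinoma, a tumour whose cells look like those of a follicle bud. The epidermis of the mouse tail is divided into scale and interscale areas, and the scale areas make hair-type keratins that are otherwise known from hair and nail.

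The promoters of 3 genes are shown as examples, which do not stand for all genes that rose or fell. The genes are Ptch1, a hedgehog target that rose, and Krt84 and Krt36, the hair-type keratins with the largest falls. They were chosen after their values were seen. The sequences are from the RefSeq promoter table (GRCm38.p6), the 250 bases before the annotated start, 5′ to 3′ on the minus strand, with each CG dinucleotide in capitals. Ptch1 lies at chr13:63565736-63565985, Krt84 at chr15:101532821-101533070 and Krt36 at chr11:100105627-100105876.
Ptch1: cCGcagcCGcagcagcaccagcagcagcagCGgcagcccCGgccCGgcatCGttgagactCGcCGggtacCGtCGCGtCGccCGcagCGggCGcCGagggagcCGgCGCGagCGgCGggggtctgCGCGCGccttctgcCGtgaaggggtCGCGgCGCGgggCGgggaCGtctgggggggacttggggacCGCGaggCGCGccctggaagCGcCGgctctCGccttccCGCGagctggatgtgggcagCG
Krt84: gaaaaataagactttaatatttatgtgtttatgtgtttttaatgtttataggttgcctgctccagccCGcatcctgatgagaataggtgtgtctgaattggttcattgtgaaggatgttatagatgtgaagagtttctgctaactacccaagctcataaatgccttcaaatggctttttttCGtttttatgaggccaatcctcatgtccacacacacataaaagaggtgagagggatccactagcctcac
Krt36: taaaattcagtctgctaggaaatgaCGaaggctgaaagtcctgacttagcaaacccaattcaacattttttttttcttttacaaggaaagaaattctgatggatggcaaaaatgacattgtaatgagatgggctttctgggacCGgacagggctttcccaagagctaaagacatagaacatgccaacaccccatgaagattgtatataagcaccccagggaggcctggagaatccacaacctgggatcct
The Ptch1 stretch holds 41 CG dinucleotides, and those of Krt84 and Krt36 hold 2 each. In windows of 300 bases, which add 50 bases after the start, the median was 19 CG dinucleotides over the windows of all genes tested, 12 over those of the genes that rose and 15.5 over those of the genes that fell. A 9-letter Gli consensus, GACCACCCA or its reverse complement TGGGTGGTC, was in 0 of 95 windows of the genes that rose (61 of 81 had a window) and in 0 of 18 windows of those that fell (15 of 19 had one). Among all promoters given, 83 of 32851 windows, 0.253%, held it, so these letters are rare in windows of this length, and their absence says nothing about binding.

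Some facts of the arrays bear on every value below. The 10-week arrays were far more alike than any other pair of the same group: the median absolute difference between them was 0.118 log2 over genes, against 0.279 to 0.484 for pairs within other groups. No label states that they come from separate mice. The test takes them as independent, and with their average as 1 array no gene passed (limma, 0 called, 757 at an unadjusted p under 0.05). Sex was uneven: Y-linked genes averaged 3.41, 8.18 and 3.43 log2 in control replicates 1 to 3 and 8.10 and 8.15 in the 10-week arrays, and the X-inactivation transcript Xist had 11.11, 7.82 and 11.37 against 5.20 and 5.51. With Y-linked signal in the model, 158 genes passed, 82 of them among the 100 of the comparison reported here, and 41 of the 47 called genes that the naming rule picks still passed. The 6 that did not pass were Krt36, Ascl2, Fzd1, Hoxc8, Fhit and 1600014C10Rik (limma, adjusted p from 0.055 to 0.0847). The basal markers Krt14, Krt5, Itga6, Itgb4, Col17a1 and Trp63 were bright in all 5 arrays, with Itgb4 the dimmest at 9.91 to 10.68. Cd34, the marker of the follicle bulge, lay between 3.69 and 4.15 in all 5 arrays, below the 40th percentile of each (4.88 to 4.99).

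At 10 weeks 100 of the 14286 genes tested differed from the controls (0.7%; limma, adjusted p under 0.05): 81 were higher (0.567%) and 19 lower (0.133%). All but 1 of them, 80 higher and 19 lower, differed at least 2-fold, and in all 100 the arrays of the groups did not overlap. Such separation by itself was common, since 16.8% of all genes tested had both 10-week arrays above every control and 20.5% had both below. The median gene differed by -0.06, with 42.8% of genes higher at 10 weeks. Centring each array on its median called 101 genes, 63 higher and 38 lower, so the share of rises fell from 81% to 62.4% and 80 genes were shared. A block for the replicate number called 163 genes by the numbers in the titles (83 shared) and 207 by those in the descriptions (98 shared), which number the 10-week arrays differently. The count rested on few arrays: it was 0 without 10-week replicate 1, 1 (Defb3) without 10-week replicate 2, and 45, 18 and 20 without control replicates 1, 2 and 3. Of the calls named below only that of Defb3 held without 10-week replicate 2, and none held without 10-week replicate 1.

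**Figure D1:**
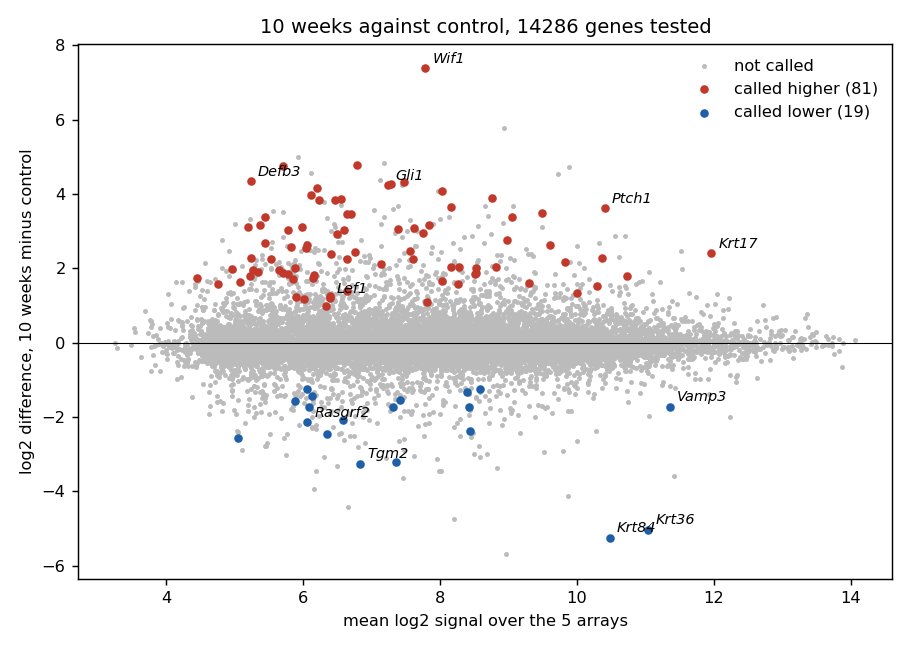
Difference of the log2 means (10 weeks minus control, vertical axis) against the mean log2 signal of the 5 arrays (horizontal axis) for the 14286 genes tested. The 81 genes called higher are red and the 19 called lower blue. Wif1 stands alone at 7.38 and the hair-type keratins Krt84 and Krt36 lie lowest among the called genes, at -5.25 and -5.03.

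Hedgehog target genes stood among the largest rises. Gli1, the transcription factor that reports pathway activity, had log2 signals of 5.73, 5.58 and 5.30 in control replicates 1 to 3 and 9.70 and 9.86 at 10 weeks. Both 10-week arrays lay far above every control. The difference was 4.24 ± 0.60 (SE, n = 2 and 3), an 18.9-fold rise (adjusted p = 0.0160). Ptch1, the hedgehog receptor, had 9.10, 8.66 and 9.11 in the controls against 12.68 and 12.45 at 10 weeks, a rise of 3.61 ± 0.53 or 12.2-fold (adjusted p = 0.0166), and its 2 other probe sets differed by 1.00 and 2.97. Prdm1 encodes the transcriptional repressor Blimp1. Its signals were 5.27, 5.01 and 4.74 in the controls, the last below the 40th percentile, against 8.95 and 8.80 at 10 weeks (3.86 ± 0.57, 14.6-fold, adjusted p = 0.0170). These 3 were the members called among the 11 tested of the target list, whose median difference was 1.31 with 8 of 11 higher. Over all genes tested 0.567% were called higher and 0.133% lower, and 42.8% had a positive difference. The counts of every list below are to be read beside these shares. Hhip, a decoy receptor that binds hedgehog ligands, had 6.78, 5.09 and 7.12 against 10.61 and 10.23. Its groups did not overlap, and the difference of 4.09 ± 1.13 did not pass (adjusted p = 0.133). The controls were widely spread, but the SE was estimated from all IFE groups, and some of those spread more. Hhip ran from 7.0 to 10.37 at 1 week, and had 4.36 and 7.79 in the arrays with SmoM2 and loss of β-catenin. In the fit of only the arrays compared, the difference passed (limma, adjusted p = 0.0109).

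Of the genes that carry the signal to the nucleus, the factor Gli2 rose. Its signals were 8.10, 7.80 and 7.22 in the controls against 11.01 and 11.14 at 10 weeks, a difference of 3.37 ± 0.55 or 10.3-fold (adjusted p = 0.0213), with 3.01 from its other probe set. It was the 1 member called of the 12 tested ligands, receptors and transducers, which had a median of 0.44. Smo, the gene of which SmoM2 is a mutant form, had 9.80, 9.80 and 10.01 against 10.78 and 10.74. The groups did not overlap, and the difference of 0.89 ± 0.30 did not pass (adjusted p = 0.227). Whether its probe set reads the transgene was not tested.

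Genes of the hair follicle formed the next group. Lgr5, a receptor for R-spondins that marks follicle stem cells, had 6.13, 6.30 and 6.78 in the controls against 10.41 and 10.54 at 10 weeks, a rise of 4.07 ± 0.78 or 16.8-fold (adjusted p = 0.0449), while its other probe set differed by 1.47. Lhx2, a LIM homeobox factor of the follicle placode and stem cells, had 7.12, 6.86 and 7.65 against 11.18 and 11.02 (3.89 ± 0.75, 14.9-fold, adjusted p = 0.0462). In both genes the groups stood well apart. At 4 weeks Lgr5 lay between 9.69 and 10.60 and Lhx2 between 11.65 and 11.74, and neither differed between 10 and 4 weeks at the threshold (adjusted p = 0.978 and 0.914). Lef1, the DNA-binding partner of β-catenin, rose less: 5.81, 6.06 and 5.89 became 6.99 and 7.21, a difference of 1.19 ± 0.21 (adjusted p = 0.0319). Lhx2 and Lef1 were the members called of 20 tested placode and follicle stem cell factors (median 0.51, 13 of 20 higher). Of 28 listed bulge and outer root sheath markers tested, 5 rose (Wif1, Lgr5, Fst, Grem1 and Fzd1), none fell, and 21 of 28 were higher, with a median of 0.91. In the series' only control bulge array Lgr5 had 11.62, Fzd1 11.31 and Grem1 6.67, above every IFE control. Wif1 had 4.70 there and Fst 6.06, which were not above the IFE controls, so in these data those genes did not mark the bulge. Krt15, a keratin on the same list, went the other way without passing: 12.90, 12.51 and 12.82 in the controls against 11.81 and 11.57 at 10 weeks (-1.05 ± 0.28, adjusted p = 0.118). It was bright in the IFE controls, so in these data it did not mark the bulge alone.

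Wnt signalling, which starts follicles and patterns them, was represented by 1 very large change. Wif1, a secreted protein that binds Wnt ligands and blocks them, had 5.60, 4.43 and 4.46 in the controls against 12.18 and 12.24 at 10 weeks. No other gene tested had a larger difference, at 7.38 ± 1.45 or 166-fold (adjusted p = 0.0475). Control replicates 2 and 3 were below the 40th percentile of their arrays, so the fold is set by signals at the low end of the scale. At 4 weeks Wif1 varied widely, with 7.71, 12.31 and 9.30 in replicates 1 to 3, and the difference between 10 and 4 weeks did not pass (adjusted p = 0.838). Ascl2, a transcription factor known as a Wnt target, fell from 7.97, 7.93 and 8.12 to 6.18 and 6.40 (-1.72 ± 0.34, adjusted p = 0.0493), and its 2 other probe sets differed by -2.66 and -2.48. Wif1 and Ascl2 were the members called of 18 tested antagonists and feedback genes (median 0.13). Of 28 ligands and receptors tested, Fzd1, a Wnt receptor, rose by 1.33 ± 0.26 (9.56, 9.53 and 9.31 to 10.76 and 10.83, adjusted p = 0.0455), while 17 of 28 were lower and the median was -0.25. Ctnnb1, which encodes β-catenin, lay at 13.04, 12.76 and 12.77 in the controls against 13.12 and 13.03 at 10 weeks, and the groups overlapped (0.22 ± 0.21, adjusted p = 0.846). Its 2 other probe sets were higher at 10 weeks, by 0.81 and 1.08.

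Among ligands and antagonists of the BMP and TGF-β family, 2 of 29 tested rose, and both are secreted antagonists. Fst, follistatin, which binds activins and BMPs, had 8.51, 7.56 and 8.25 in the controls against 11.56 and 11.61 at 10 weeks (3.48 ± 0.51, 11.1-fold, adjusted p = 0.0166). Grem1, gremlin, which binds BMPs, had 4.98, 5.39 and 5.41 against 8.76 and 8.67 (3.46 ± 0.59, 11.0-fold, adjusted p = 0.0267). The list had a median of 0.89 with 21 of 29 higher. Its members were not all of one direction, with 15 of 29 having both 10-week arrays above every control (16.8% of all genes) and 5 having both below (20.5% of all genes). In both genes the 10-week signals exceeded those at 4 weeks, where Fst lay between 8.81 and 10.74 and Grem1 between 6.42 and 7.89, though neither of those differences passed (adjusted p = 0.743 and 0.794).

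**Figure D2:**
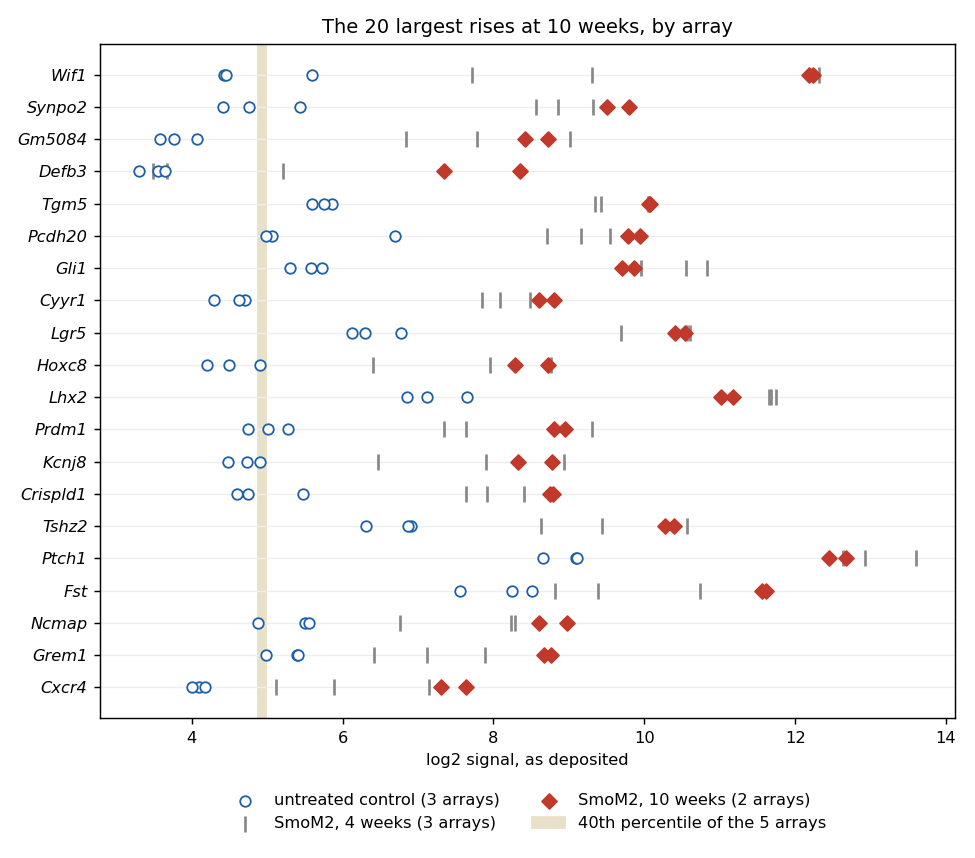
Log2 signal (horizontal axis) of the 20 genes with the largest rises, one line per gene, in the 3 controls (open circles), the 3 arrays at 4 weeks (grey ticks) and the 2 arrays at 10 weeks (red diamonds). The shaded band spans the 40th percentiles of the 5 compared arrays, 4.88 to 4.99. Both 10-week arrays lie above every control for each gene. For Defb3 they are 8.35 and 7.34, above the 4-week arrays as well.

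The epithelial defence and stress genes held the call of lowest adjusted p. Defb3, a β-defensin with antimicrobial activity, had 3.55, 3.30 and 3.64 in the controls, all below the 40th percentile, and 8.35 and 7.34 at 10 weeks. Its rise of 4.35 ± 0.45 had an adjusted p of 0.0106, and no fold is given against such low signals. Krt17, a keratin of the follicle's outer sheath and of injured or tumorous epidermis, was already bright in the controls at 11.58, 10.63 and 10.80 and reached 13.43 and 13.39 (2.41 ± 0.45, 5.30-fold, adjusted p = 0.0428), with 0.86 from its other, dim probe set. These 2 were called of 30 tested stress keratins, antimicrobial peptides and alarmins (median 0.64, 22 of 30 higher). The calgranulins S100a8 and S100a9, chosen after their values were seen, had the list's largest differences without passing. S100a9 had 4.87, 5.18 and 9.82 in the controls against 12.79 and 12.02 at 10 weeks (5.78 ± 2.02, adjusted p = 0.255), and S100a8 had 6.53, 6.78 and 10.66 against 13.04 and 12.40 (4.73 ± 1.90, adjusted p = 0.357). In both genes control replicate 3 stood far above the other controls. Cxcr4, the receptor for the chemokine Cxcl12, was the 1 gene called of 30 chemokine and interleukin genes: 4.09, 4.01 and 4.18 became 7.63 and 7.31 (3.38 ± 0.58, adjusted p = 0.0274). All 3 controls of Cxcr4 were below the 40th percentile, so no fold is given.

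Adhesion, matrix and guidance genes gave scattered calls. Pcdh20, a protocadherin, had 6.69, 5.07 and 4.98 in the controls against 9.78 and 9.94 at 10 weeks (4.28 ± 0.71, 19.4-fold, adjusted p = 0.0243), and its other probe set gave 4.30. Cldn1, a tight junction protein of the epidermal barrier, rose from 9.96, 9.75 and 10.33 to 11.87 and 11.75 (1.80 ± 0.34, adjusted p = 0.0434), though its 3 other probe sets ranged from -0.01 to 1.94. They were the members called of 32 junction genes (median 0.17). Adamts5, a protease that cleaves aggrecan, rose from 5.29, 5.01 and 5.71 to 8.32 and 8.19 (2.92 ± 0.39, 7.55-fold, adjusted p = 0.0122) as the 1 call among 26 proteases and inhibitors, and its 3 other probe sets ranged from 0.17 to 2.71. Of 33 semaphorin, plexin, neuropilin and guidance genes tested (median -0.06, 15 higher and 18 lower), 1 rose and 1 fell. The ligand Sema5a rose by 2.04 ± 0.38 (7.03, 7.15 and 8.20 to 9.47 and 9.54, adjusted p = 0.0398), with -0.08 to 1.46 from its 3 other probe sets. Nrp1, a co-receptor for semaphorins and VEGF, fell by 2.47 ± 0.48 (7.25, 7.89 and 6.88 to 4.75 and 4.98, adjusted p = 0.0455), with -3.38 to -0.37 from its 3 others. No member of 35 collagen, proteoglycan and matrix genes passed. The lowest adjusted p among them belonged to the matrix genes Fbln2, which had 5.44, 5.85 and 5.58 against 8.09 and 7.44 (adjusted p = 0.0744), and Ogn, which had 7.61, 7.96 and 7.61 against 3.92 and 3.66 (adjusted p = 0.0823).

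The remaining large rises belonged to none of the lists. Synpo2, an actin-binding protein, had 5.44, 4.41 and 4.76 in the controls against 9.50 and 9.80 at 10 weeks (4.78 ± 0.88, adjusted p = 0.0374), with 2 controls below the 40th percentile, and its 3 other probe sets ranged from 0.28 to 2.92. The predicted gene Gm5084 rose by 4.76 ± 0.64 from controls that were all under the 40th percentile (4.07, 3.58 and 3.77 to 8.42 and 8.72). The homeobox gene Hoxc8 rose from 4.91, 4.20 and 4.49 to 8.72 and 8.28, a difference of 3.97 ± 0.79. In these 3 genes both 10-week arrays were above 8, whereas no control reached 6. Kcnj8, a potassium channel subunit, rose by 3.85 (4.90, 4.48 and 4.73 to 8.78 and 8.32), and Tshz2, a zinc finger factor, by 3.64 (6.91, 6.31 and 6.87 to 10.27 and 10.40), with 0.82 and 2.20 from its 2 other probe sets. The secreted protein gene Crispld1 rose by 3.83 (5.48, 4.60 and 4.74 to 8.75 and 8.79), with 4.04 from its other probe set. Ncmap, a myelin-associated membrane protein, rose by 3.47 (5.50, 4.88 and 5.56 to 8.60 and 8.97). Cyyr1, a membrane protein rich in cysteine and tyrosine, rose by 4.16 (4.71, 4.63 and 4.29 to 8.80 and 8.61) from controls all under the 40th percentile, while its other, dim probe set differed by 0.19. Low starting signals were frequent: 18 of the 81 genes that rose lay under the 40th percentile in all 3 controls. Hoxc8, Kcnj8 and Crispld1 did so in 2 controls, and Ncmap in 1. The smallest rise called was 0.99 in Plaat3. Smaller rises that may interest a skin biologist, chosen after their values were seen, include Col4a3, a basement membrane collagen chain (4.96, 5.21 and 4.87 to 7.43 and 7.84), and Scnn1g, an epithelial sodium channel subunit (4.98, 5.04 and 5.05 to 7.94 and 7.18). Axl, a receptor tyrosine kinase, went from 7.20, 7.22 and 7.71 to 8.52 and 8.40.

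The largest falls called were those of Krt84 and Krt36, both hair-type keratins. Krt84 had 12.51, 12.92 and 12.30 in the controls, near the top of the array's scale, and 6.73 and 7.93 at 10 weeks, a fall of 5.25 ± 0.83 or 38.0-fold (adjusted p = 0.0187). Krt36 had 13.22, 13.08 and 12.87 against 7.35 and 8.69 (-5.03 ± 0.98, 32.8-fold lower, adjusted p = 0.0475). In both, 10-week replicate 2 was above replicate 1 and still far under every control, and the 4-week arrays lay between 6.77 and 10.56. These 2 were called of 29 tested hair-type keratins and associated genes, of which 26 were lower (median -0.75) and 14 had both 10-week arrays below every control (20.5% of all genes). Their summed signal, as log2, was 13.99 to 14.32 in the controls and 10.98 to 11.41 at 10 weeks. Fewer cells of the kind that makes these keratins, and less keratin mRNA per cell, cannot be told apart in bulk RNA.

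**Figure D3:**
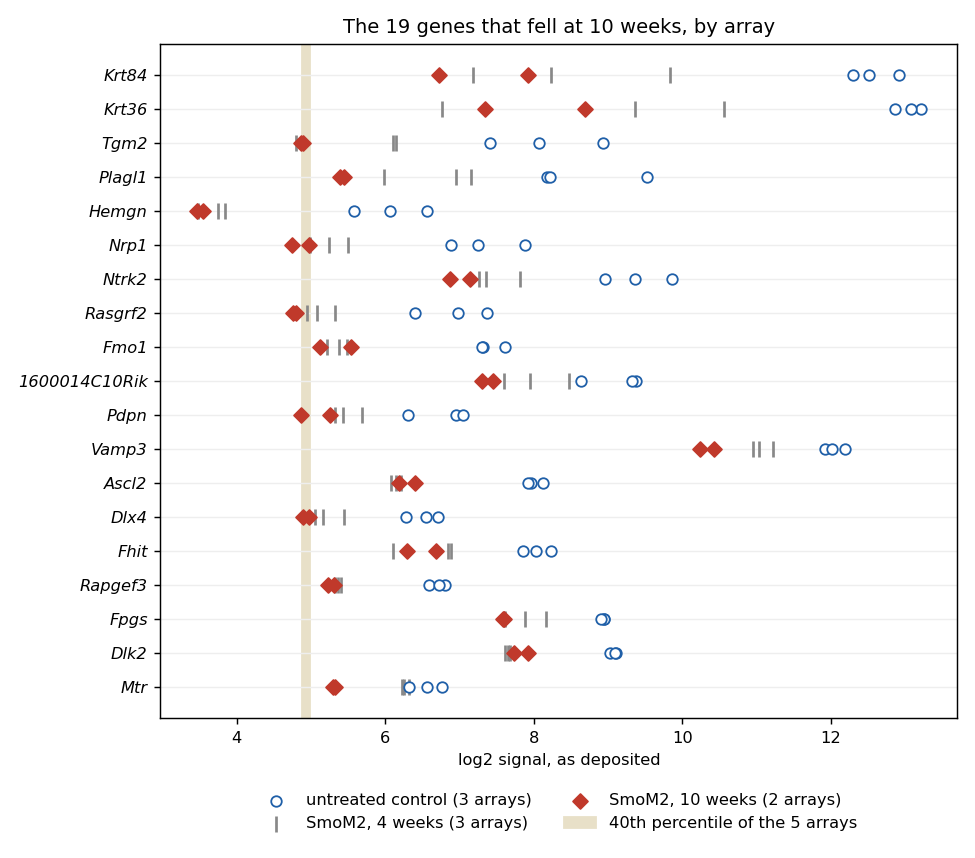
Log2 signal (horizontal axis) of the 19 genes that fell, one line per gene, in the 3 controls (open circles), the 3 arrays at 4 weeks (grey ticks) and the 2 arrays at 10 weeks (red diamonds). The shaded band spans the 40th percentiles of the 5 compared arrays. Krt84 and Krt36 drop from above 12 to below 9, and for most genes the 4-week arrays lie near the 10-week pair.

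The basal and differentiation programmes of the interfollicular epidermis showed few calls. Among 24 tested basal keratin, hemidesmosome and basement membrane genes none passed (0 called, median -0.16). Krt14 had a mean of 14.13 ± 0.11 (SD, n = 3) in the controls against 13.41 and 13.54 at 10 weeks, lower than every control without passing (-0.66 ± 0.26, adjusted p = 0.345). Krt5, its partner keratin, had 14.23, 13.77 and 13.75 against 13.67 and 13.70 (adjusted p = 0.895). The list's lowest adjusted p belonged to Itgb6, the integrin β6 subunit (5.01, 4.83 and 5.65 against 7.72 and 7.68, adjusted p = 0.100), and to Col4a2, a type IV collagen chain (7.52, 6.85 and 6.33 against 9.40 and 9.22, adjusted p = 0.118). Of 43 suprabasal and barrier genes tested 1 rose and 1 fell, both transglutaminases. Tgm5, which cross-links the cornified envelope, had 5.86, 5.76 and 5.60 in the controls against 10.08 and 10.06 at 10 weeks (4.33 ± 0.77, 20.1-fold, adjusted p = 0.0319). Tgm2, the tissue transglutaminase, had 8.93, 7.41 and 8.07 against 4.90 and 4.86 (-3.26 ± 0.50, adjusted p = 0.0175), below the 40th percentile on both 10-week arrays, and its 5 other probe sets ranged from -2.97 to 0.00. Krt1 and Krt10, the main suprabasal keratins, overlapped between the groups, with 12.42 to 13.15 against 12.38 and 13.08 for Krt1 and 13.69 to 14.01 against 13.36 and 13.80 for Krt10 (adjusted p = 0.983 and 0.852).

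The other genes that fell came from many families. Plagl1, an imprinted zinc finger factor, fell by 3.22 ± 0.59 (9.53, 8.18 and 8.22 to 5.39 and 5.45, adjusted p = 0.0366), but its 2 other probe sets differed by only -0.37 and -0.05. Ntrk2, the receptor TrkB for the neurotrophin BDNF, fell by 2.39 ± 0.43 (9.86, 8.96 and 9.37 to 6.87 and 7.14, adjusted p = 0.0319), with -3.63 to -0.10 from its 7 other probe sets, and it was the 1 call of 10 neurotrophin and glial ligand genes. Hemgn, a nuclear protein known from blood precursors, fell from 6.56, 6.06 and 5.58 to 3.46 and 3.55, below the 40th percentile on both arrays. Signalling genes among the falls were Rasgrf2, an exchange factor for Ras (6.40, 6.98 and 7.37 to 4.76 and 4.80), and Rapgef3, a cAMP-responsive exchange factor for Rap (6.59, 6.80 and 6.72 to 5.23 and 5.31). The 2 other probe sets of Rasgrf2 differed by only -0.34 and -0.31, against -2.14 for the one used, and the 4 others of Rapgef3 by -1.78 to -0.46. Dlk2, a relative of the Notch ligand family, fell from 9.11, 9.03 and 9.10 to 7.93 and 7.73, and its other probe set differed by -1.51. Fpgs and Mtr, enzymes of folate metabolism, fell by 1.34 and 1.24: Fpgs had 8.95, 8.95 and 8.91 against 7.60 and 7.59, and Mtr had 6.32, 6.56 and 6.77 against 5.30 and 5.32, with 0.02 from its other probe set. Vamp3 went from 12.20, 11.93 and 12.02 to 10.24 and 10.43, and Pdpn from 6.96, 6.31 and 7.05 to 4.86 and 5.26. The membrane glycoprotein gene Pdpn, the homeobox gene Dlx4, the vesicle protein gene Vamp3, the monooxygenase gene Fmo1, the hydrolase gene Fhit and the unnamed transcript 1600014C10Rik also fell, with differences of -1.72, -1.58, -1.72, -2.08, -1.54 and -1.74. For Vamp3 the 4 other probe sets ranged from -1.69 to 0.29, and for 1600014C10Rik the 3 others from -0.38 to -0.01. Like Hemgn, Rasgrf2 was below the 40th percentile on both 10-week arrays, while Pdpn, Dlx4 and Nrp1 were so on 1.

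Cell cycle genes were not called in either direction. Of 35 tested, 34 were lower at 10 weeks and the median was -0.46, next to -0.06 over all genes, while 8 had both 10-week arrays below every control, against 20.5% of all genes tested. Mki67, the proliferation marker, had 11.52, 10.98 and 11.36 in the controls against 10.59 and 10.82 at 10 weeks (-0.58 ± 0.61, adjusted p = 0.864). The replication helicase subunit gene Mcm2 had 10.20, 9.01 and 9.24 against 8.48 and 8.59 (adjusted p = 0.603), and the nucleotide reductase gene Rrm2 had 11.54, 11.04 and 10.81 against 10.26 and 10.65 (adjusted p = 0.494). Among inhibitors of the cycle, Cdkn2b, which blocks the kinases Cdk4 and Cdk6, rose from 7.55, 7.42 and 7.94 to 9.33 and 9.13 (1.59 ± 0.25, 3.02-fold, adjusted p = 0.0175). Its list of 21 inhibitors and p53 targets, which also holds Plagl1, had a median of 0.17. The neighbouring gene Cdkn2a, chosen after its values were seen, had 4.18, 3.92 and 4.32 against 7.52 and 7.85 and did not pass (3.55 ± 0.94, adjusted p = 0.120).

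Several lists had no member past the threshold. Of 26 immediate-early and dissociation stress genes 24 were higher, with a median of 0.68, and the lowest adjusted p was that of Socs3, a cytokine signalling suppressor (8.27, 8.36 and 8.34 against 11.18 and 10.23, adjusted p = 0.136). These genes respond to tissue dissociation, and the part that sorting may have had was not tested. The Notch, EGF and FGF, interferon, and sterol lists had medians of 0.03, 0.06, 0.01 and 0.10, and each of those medians changed sign under at least 1 other setting, as did those of the chemokine, semaphorin, collagen, fibroblast, endothelial and muscle lists. In the Notch list the ligand Jag1 had 8.85, 10.34 and 11.09 against 11.53 and 11.37 (adjusted p = 0.490), and the ligand Dll1 had 8.97, 8.30 and 9.14 against 7.51 and 7.55 (adjusted p = 0.175). The feedback inhibitor Spry1 of the FGF pathway came near the threshold, with 8.57, 8.65 and 8.50 against 7.52 and 7.72 (-0.95 ± 0.20, adjusted p = 0.0606). Of the sterol synthesis genes, Fdps had 8.78, 9.24 and 9.16 against 10.16 and 10.24 (adjusted p = 0.306). The interferon list held the gene H2-D1, which depended on the probe set: the one used had 6.47, 10.46 and 6.80 in the controls against 12.44 and 12.46 at 10 weeks (4.54 ± 1.03, adjusted p = 0.0766), while its 8 others ranged from -5.48 to 4.76.

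**Figure D4:**
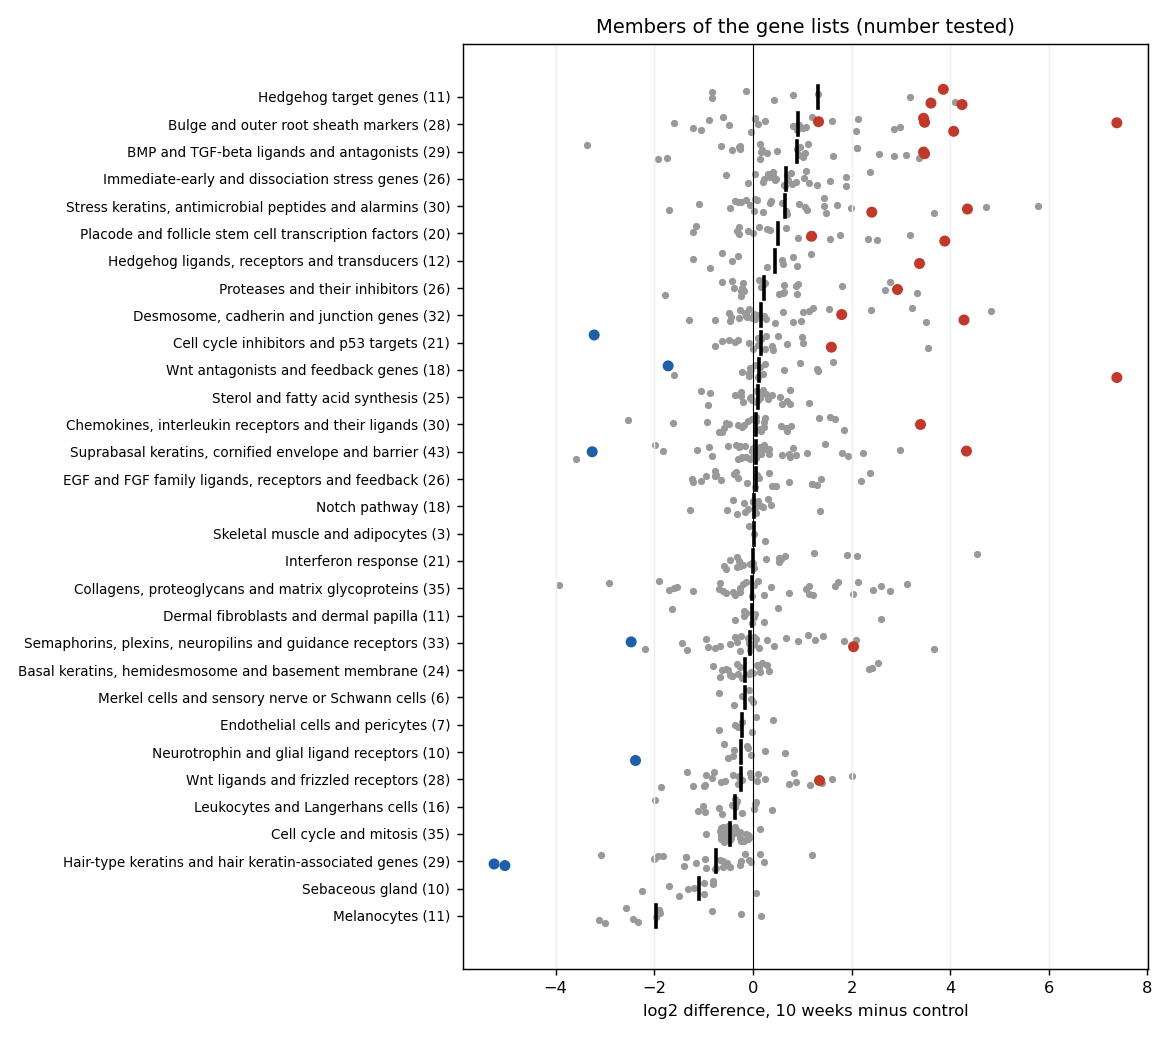
Difference of the log2 means (10 weeks minus control, horizontal axis) of each tested member of 31 gene lists, with the number tested in brackets. Red points are members called higher, blue points members called lower, grey points members not called, and the black bar is the median of the list. Hedgehog targets have the highest median, 1.31, and melanocyte markers the lowest, -1.97.

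No marker of another cell type of the skin was called, and the lists are given by their counts and summed signals. Of 11 tested melanocyte markers 10 were lower at 10 weeks, with a median of -1.97, and their summed log2 signal was 10.76 to 12.96 in the controls and 9.60 to 10.17 at 10 weeks. The pigment enzyme Dct had 8.58, 11.27 and 9.81 against 5.84 and 7.91, and the growth factor receptor Kit, which melanocytes need, had 5.34, 7.16 and 5.70 against 3.94 and 4.41 (adjusted p = 0.125). Of 10 sebaceous gland markers 9 were lower (median -1.09), summing to 13.83 to 14.39 against 13.59 to 13.82. Leukocyte and Langerhans markers were lower in 12 of 16, and summed to 10.24 to 11.20 against 10.01 to 10.19. Thy1, a surface marker of T cells among others, had 8.29, 8.05 and 8.32 against 6.13 and 6.32 (adjusted p = 0.308). Ptprc, which marks leukocytes, was dim throughout, at 4.16, 4.39 and 5.01 against 3.90 and 3.88. Of 11 fibroblast markers 5 were higher, and their sum was higher at 10 weeks, 11.61 to 11.94 against 9.86 to 10.87. At 10 weeks that sum followed Dcn, a proteoglycan gene (8.67 to 9.22 against 11.76 and 11.37, adjusted p = 0.118). The fibroblast collagens Col1a1 and Col3a1 lay between 3.78 and 5.36 in all 5 arrays. Vim, another listed marker, had a lower mean at 10 weeks, with overlap: 6.62, 10.05 and 8.65 against 6.32 and 7.28 (limma, adjusted p = 0.676). Its 2 other probe sets differed by -1.31 and -1.30. In control replicate 2 Vim was brighter than Dcn, which had 8.67 there. Endothelial markers summed to 9.36 to 9.68 against 9.28 to 9.44, with Cdh5 and 4 others under the 40th percentile in all 5 arrays. Merkel and nerve markers summed to 9.23 to 9.37 against 8.83 to 8.88, and Krt20 lay between 3.98 and 4.23. Muscle and adipocyte markers summed to 8.04 to 8.27 against 8.09 to 8.15. The part that cell composition may have in any gene above was not tested.

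Between 10 and 4 weeks no gene passed (limma, 0 called of 14286, 893 at an unadjusted p under 0.05, lowest adjusted p 0.0523). A replicate block by title number called 2 (1810014B01Rik and Aknad1). Defb3 came nearest: it had 3.49, 5.21 and 3.67 at 4 weeks and 8.35 and 7.34 at 10 weeks, a difference of 3.72. Under quantile normalization, a stricter filter, or a variance trend with robust moderation it was the 1 gene called. Without 4-week replicate 2 the count was 13, and without replicate 1 it was 1 (Stap1). Among genes at an unadjusted p under 0.05 without overlap, Orm1, an acute-phase plasma protein gene, and Tmem267 were higher at 10 than at 4 weeks by 2.60 and 2.58. Tmem267 had 4.88, 4.26 and 7.51 at 4 weeks and 8.34 and 7.92 at 10 weeks. Its controls had 8.22, 7.25 and 7.84, so its 10-week signal lay near that of untreated cells. Orm1 had 3.74, 7.16 and 7.56 at 4 weeks, 8.91 and 8.59 at 10 weeks, and 7.01, 5.86 and 7.28 in the controls. The membrane peptidase gene Mme, the microtubule cross-linker gene Mtcl1 and the matrix protein gene Cilp were lower by -3.29, -3.08 and -2.85. Mme had 9.20, 5.18 and 8.35 at 4 weeks and 4.40 and 4.18 at 10 weeks, next to 3.36, 4.17 and 4.06 in the controls, so at 10 weeks it lay near the level of untreated cells. Cilp did likewise, with 9.78, 5.85 and 7.60 at 4 weeks, 5.16 and 4.63 at 10 weeks and 4.23 to 4.28 in the controls. For the 3 hedgehog targets called against control, the differences from 4 weeks were -0.66 for Gli1, -0.49 for Ptch1 and 0.77 for Prdm1, and none passed (adjusted p = 0.888, 0.899 and 0.851).

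**Figure D5:**
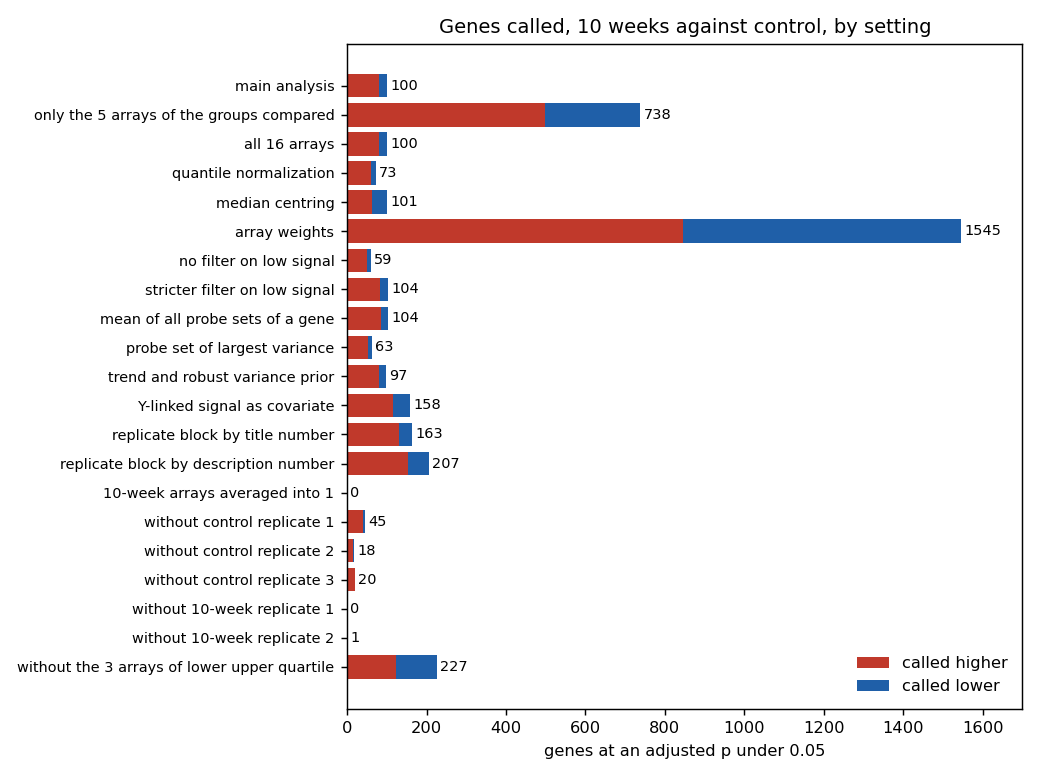
Number of genes called at an adjusted p under 0.05 between 10 weeks and control (horizontal axis, from 0) under each setting, split into genes called higher (red) and lower (blue). The count of 100 becomes 0 when the 10-week arrays are averaged into 1, and 1545 when arrays are weighted by their spread.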

How the data were processed

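Affymetrix 3′ expression arrays measured RNA amplified from sorted cells. The authors deposited 1 table of log2 values (45101 probe sets, 16 arrays). R 2.14.0 is listed in the submitters' processing notes, while background correction, normalization and probe set summary were not given in the sources used here. Groups came from the sample labels. Of the probe sets, 34958 had 1 gene symbol, 932 several and 9211 none. Each gene took the values of its brightest probe set, and was tested if above the 40th percentile on at least 2 arrays. Group means were fitted to the 14 IFE arrays with limma 3.58.1 (R 4.3.3, empirical Bayes, total degrees of freedom 11.6), with Benjamini-Hochberg adjustment over 14286 genes. Besides the untreated, 4-week and 10-week groups, these were SmoM2 arrays at 3 days and 1 week, and arrays with SmoM2 and loss of β-catenin at 4 weeks. Differences are log2 ± SE. No depth applies to arrays, and their number limits the precision. On simulated data for 10 weeks against control (200 genes changed of 14286) 9.5%, 77.5% and 92.5% of changes of 1, 2 and 3 log2 were recovered, with 1, 12 and 16 false calls. The simulated arrays were independent of each other. The real 10-week pair may not be, so these shares may not hold for the real arrays. Named genes were the 20 largest rises and all 19 falls, up to 3 called members of each list (where none was called, the 2 with the lowest adjusted p), and a set of 16 pathway and keratin genes. For 10 against 4 weeks the rule took the 3 largest differences each way. The members, lists and rule were chosen with earlier results of these data known. Lists are described by counts and medians, with no set test.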

Additional observations from a re-analysis of the deposited data

How the results depend on the processing

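Against the 100 genes called at 10 weeks, the fit of only the 5 arrays called 738, array weights 1545, no filter on low signal 59, the probe set of largest variance 63, Y-linked signal as a covariate 158, and the 10-week arrays averaged into 1 called 0. Leaving out 1 array gave 0 to 45. Array weights were 5.14 for each 10-week array and 0.344 to 1.44 for the others. Without the 3 arrays of lower upper quartile, an alternative chosen after seeing the data, 227 passed (124 higher and 103 lower). Quantile normalization, median centring, a stricter filter, the mean of all probe sets, all 16 arrays and a trended robust prior gave 73 to 104. A replicate block by the number in the titles called 163 and by that in the descriptions 207. The numbers of the 10-week arrays differ between title and description, so the number was not taken to pair the 10-week arrays with others. Deviations of same-numbered 10-week and control arrays correlated at 0.068 and 0.125 (titles) or -0.125 and -0.061 (descriptions). With 2 arrays at 10 weeks, the deviations of 1 are those of the other with the sign reversed. The values of a scheme are therefore not separate, and they do not settle whether the number pairs the arrays. Control and 4-week arrays of the same number did deviate together, at 0.569, 0.492 and 0.482, and the arrays numbered 2 of the control, 1-week and 4-week groups had the lower upper quartiles, so same-numbered arrays of those groups share deviations that the fit without a block does not take up. For 10 against 4 weeks, against 0, quantile normalization, the stricter filter and the trended prior called 1 each, array weights 14 and the title block 2 (1810014B01Rik and Aknad1). Leaving out 1 array gave 0 to 13. Of the 90 named genes' values under these alternatives, 1384 kept direction and side of the threshold, 350 lost the call, 51 gained it, 7 moved and 2 reversed. With the probe set of largest variance H2-D1 was -5.48 and Vamp3 0.29, since other probe sets were then read. The other 46 of the 47 called named genes kept their direction under all 20 alternatives. Of the medians of 31 lists, 571 stayed within the spread of the arrays and 49 moved. Apart from the probe set choice, the cause of these changes was not tested. With 2 arrays against 3, changes near 1 log2 were mostly missed in the simulation of independent arrays.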
